A study of Rattus norvegicus with 7 samples.

Results

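Insulin and insulin-like growth factor (IGF) signaling was described through 10 genes chosen by symbol: the ligands Igf1 and Igf2, the receptors Insr, Igf1r and Igf2r, the receptor substrates Irs1 and Irs2, and the IGF-binding proteins Igfbp2, Igfbp4 and Igfbp5. All 10 were found among the 16183 symbols of the hypothalamus table, and 9 among the 16223 symbols of the hippocampus table. Igf2r was not analysed here in hippocampus. Where a symbol was listed at several loci, the locus with the highest mean was taken. The animals were male Sprague Dawley rats, 2 months old at the start, that received the omega-3 fatty acid docosahexaenoic acid (DHA) in their feed for 6 weeks. Hippocampus is represented by 4 libraries and hypothalamus by 3. Chow-fed rats were not analysed here, so every library carries the DHA diet and no value speaks to its effect. The labels do not say whether libraries of the same number came from the same rat, or that each library is a separate rat, so the spread between libraries may be partly technical.

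In this pathway, insulin and the IGFs bind receptor tyrosine kinases, which phosphorylate IRS proteins and through them switch on PI3 kinase and AKT. Most IGF outside cells is held by IGF-binding proteins, which carry it and keep it from or bring it to its receptors. In brain, Igf2 is known for strong expression in the meninges and choroid plexus, Igf1 for expression in scattered neurons and glia, and insulin for reaching the brain largely from blood.

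Values are FPKM as the authors deposited them, fragment numbers scaled to transcript length and library size, so that levels can be compared between genes. Summed FPKM were 370020 to 391349 in the hippocampus libraries and 443335 to 471484 in the hypothalamus libraries, and depth in reads is unknown. A list of 6 hippocampal neuron markers had a mean log2(FPKM + 1) of 5.10 to 5.39 in the hippocampus libraries and 1.39 to 1.69 in the hypothalamus libraries. A list of 8 hypothalamic neuron markers had 8.09 to 8.65 in hypothalamus and 0.89 to 1.21 in hippocampus, so both tissues carried the markers of their labels. Spink8, a listed hippocampal marker, was low in both, at means of 0.133 and 0.578 FPKM.

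The members covered a wide range of levels, with Igf2 and Igfbp2 highest by mean in both tissues and Irs1 and Igf1 at the bottom in hippocampus. Single libraries departed from this at the top. Igfbp5 exceeded both Igf2 and Igfbp2 in hypothalamus replicate 3, and Irs2, Igfbp5 and Igfbp4 exceeded both in hippocampus replicate 2. Mean FPKM in hippocampus ran from 113 ± 119 for Igfbp2 (SD, n = 4) through 56.7 ± 55.6 for Igf2, 25.2 ± 4.67 for Irs2, 19.4 ± 6.19 for Igfbp5 and 15.2 ± 3.0 for Igfbp4. Below these, Igf1r had 6.14 ± 0.300, Insr 5.81 ± 0.582, Irs1 2.65 ± 0.235 and Igf1 1.82 ± 0.385 FPKM. The libraries of neighbours in this order overlapped except at 3 steps: from Igfbp4 down to Igf1r, from Insr to Irs1, and from Irs1 to Igf1, where the lowest Irs1 library (2.37) lay just above the highest Igf1 library (2.36). In hypothalamus the order was Igf2 at 127 ± 102 (SD, n = 3), Igfbp2 at 106 ± 80.9, Igfbp5 at 75.4 ± 29.7, Irs2 at 22.3 ± 4.37 and Igf2r at 16.2 ± 3.03 FPKM. It continued with Igf1 at 5.84 ± 1.81, Igfbp4 at 5.30 ± 2.31, Igf1r at 5.10 ± 1.12, Insr at 4.61 ± 0.280 and Irs1 at 1.81 ± 0.176 FPKM. Here neighbours were apart in every library from Igfbp5 to Irs2, from Igf2r to Igf1 and from Insr to Irs1.

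**Figure D1:**
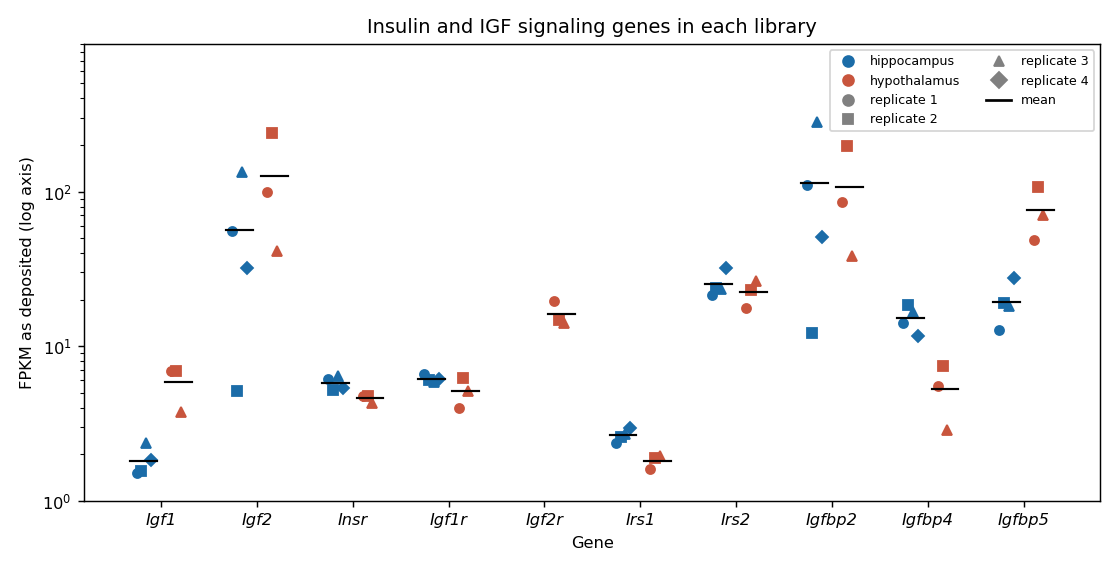
FPKM as deposited of the 10 genes (log axis), 1 point per library, with hippocampus in blue, hypothalamus in red, the symbol giving the replicate and a bar at the mean. Igf2 and Igfbp2 spread over more than an order of magnitude in hippocampus, from 5.14 to 134 and from 12.1 to 281 FPKM, while Insr, Igf1r and Irs1 lie close together.

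Igf2 encodes a growth factor that acts through the IGF1 and insulin receptors. In hippocampus, Igf2 read 55.5, 5.14, 134 and 31.9 FPKM in replicates 1 to 4. Replicate 3 was thus 26.1 times replicate 2. In hypothalamus, Igf2 read 99.5, 240 and 41.1 FPKM, and replicate 2 was 5.84 times replicate 3.

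Igfbp2 encodes an IGF-binding protein that is secreted into cerebrospinal fluid. In hippocampus, Igfbp2 read 110, 12.1, 281 and 50.7 FPKM, a 23.2-fold range with the libraries in the same order as for Igf2 at its higher locus. In hypothalamus it read 85.7, 196 and 38.0 FPKM, again in the order of Igf2. The SD of log2(FPKM + 1) was 1.88 for Igf2 and 1.87 for Igfbp2 in hippocampus, where the 90th percentile over 11197 loci was 0.58. In hypothalamus it was 1.26 and 1.17, against a 90th percentile of 0.57 over 11483 loci. The percentage of loci above that percentile is 10 in each table by construction, and of the members 2 of 9 in hippocampus (Igf2 and Igfbp2) and 3 of 10 in hypothalamus (with Igfbp4) were above it. Igfbp4 barely passed in hypothalamus, at percentile 90.02, and Igfbp5 barely missed, at 89.8. With a pseudocount of 5, Igfbp5 passed in place of Igfbp4. With median-of-ratios scaling or loci summed, 4 of 10 passed, Igfbp4 and Igfbp5 among them. Without hypothalamus replicate 2, 2 passed, Igf2 and Igfbp2. Without hypothalamus replicate 1, 5 of 10 were above the 90th percentile, Igf1 and Igfbp5 being the others.

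The level of Igf2 relative to Igfbp2 moved much less than either gene. The ratio of their FPKM was 0.505, 0.425, 0.478 and 0.630 in the hippocampus libraries and 1.16, 1.23 and 1.08 in the hypothalamus libraries. Igf2 was listed at a second hippocampal locus with 0, 1.85, 29.7 and 30.5 FPKM. At the higher locus, every hypothalamus library was above every hippocampus library in this ratio. With both loci summed the hippocampal ratio was 0.505, 0.577, 0.584 and 1.23, and the tissues overlapped. Summed, Igf2 was also higher in replicate 4 than in replicate 1, unlike Igfbp2.

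Among the 7652 hippocampal symbols averaging 5 FPKM or more, Igfbp2 was the gene closest to Igf2 over the 4 libraries, with a root mean square difference of 0.175 between their log2 deviations from the tissue mean. Next came Aqp1, Ace, Scgb1c1 and Slc4a5, at 0.395 to 0.429. Aqp1, a water channel gene, and Slc4a5, a bicarbonate transporter gene, are choroid plexus markers. For Igfbp2, the closest after Igf2 were Scgb1c1, Ace, Fmod and Slc13a4, at 0.410 to 0.522, the last a sulfate transporter gene listed here as a meningeal marker. In hypothalamus, over 3 libraries and 8199 symbols, the genes closest to Igf2 were Bgn, Mustn1, Pf4, Col1a1 and Myl9, at 0.02 to 0.07, and Igfbp2 ranked sixth at 0.08. Bgn and Col1a1 encode matrix proteins of connective tissue and Myl9 a smooth muscle myosin light chain. Those closest to Igfbp2 were Myl9, Mustn1, Pf4, Bgn and Aoc3, at 0.04 to 0.07. With so few libraries, many genes can share an order, and these distances are descriptions without a test.

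Markers of tissue around the brain moved with both genes. Of the 12 meningeal markers, 10 were above 0 in a hippocampus library. Of these 10, 9 were highest in replicate 3 and 8 lowest in replicate 2, as Igf2 and Igfbp2 were, but 2 of the 10 shared their full library order. The list had a mean log2(FPKM + 1) of 1.97, 1.504, 3.73 and 2.17 in replicates 1 to 4, and its summed FPKM ran from 39.2 to 268. In hypothalamus, 11 of the 12 were above 0 and all 11 had the library order of Igf2, with a list mean of 3.85, 4.54 and 2.69 and summed FPKM from 138 to 619. Col1a2 was listed at 0 in all 7 libraries, and Ogn at 0 in hippocampus.

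The choroid plexus list spanned 4.45 in hippocampus and 0.37 in hypothalamus. In hippocampus, 8 of its 9 genes found were above 0, and all 8 were highest in replicate 3 and lowest in replicate 2, with a list mean of 4.63, 0.95, 5.39 and 4.56 and summed FPKM from 35.3 to 6042. Of these 8, 3 had the full library order of Igf2. In hypothalamus the list mean was 1.87, 2.00 and 1.63, with summed FPKM from 45.0 to 80.0, and 5 of the 9 genes above 0 had the order of Igf2. Otx2 was listed at 0 in every library. The list of pericyte and smooth muscle genes stood at 3.48, 4.15, 5.56 and 3.98 in hippocampus, with summed FPKM from 70.4 to 1028, and of its 5 genes found 3 were highest in replicate 3, 0 lowest in replicate 2 and 0 in the order of Igf2. It stood at 5.36, 5.70 and 3.89 in hypothalamus, with summed FPKM from 128 to 680, and 5 of its 6 genes had the order of Igf2. None of its genes was at 0 in all libraries of a tissue. The endothelial list ranged over 0.30 in hippocampus and 0.32 in hypothalamus, and 0 of its 6 genes found had the order of Igf2 in hippocampus and 1 of 6 in hypothalamus. All 7 immediate early genes found, a group switched on by neuronal activity, were also lowest in hippocampus replicate 2, but none was highest in replicate 3, and the list mean was 4.34, 3.30, 3.62 and 3.58. The oligodendrocyte list, for comparison, ranged over 0.14 in hippocampus and 0.37 in hypothalamus. The part of meningeal, choroid plexus, pericyte or smooth muscle RNA in the levels of Igf2 and Igfbp2 was not tested. In these bulk libraries, more cells of a type and more RNA per cell cannot be told apart.

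**Figure D2:**
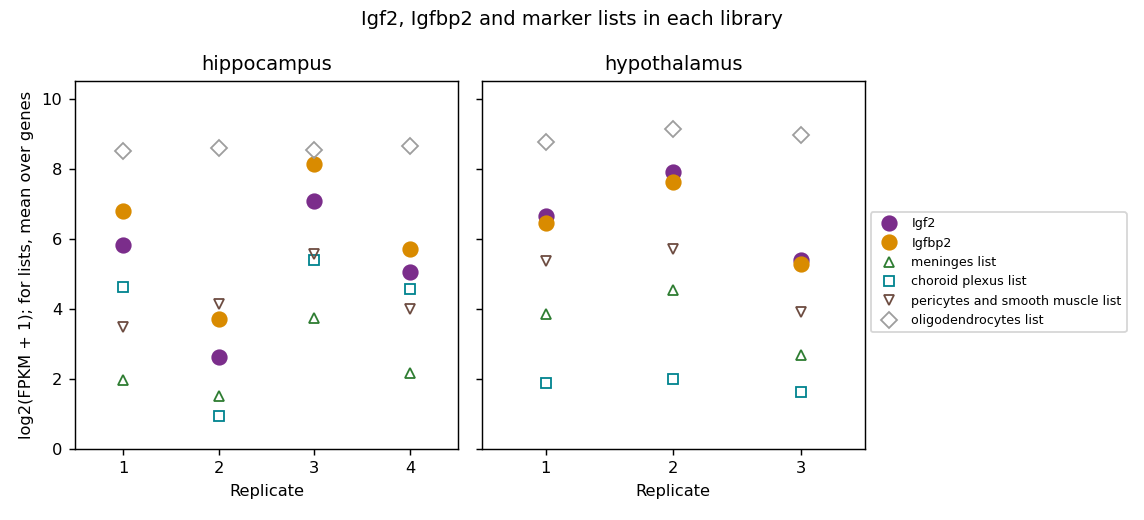
log2(FPKM + 1) of Igf2 and Igfbp2 (filled circles) and the mean log2(FPKM + 1) of 4 marker lists (open symbols) in each library, with hippocampus on the left and hypothalamus on the right. In hippocampus, Igf2, Igfbp2 and the meningeal and choroid plexus lists are all lowest in replicate 2 and highest in replicate 3, and the oligodendrocyte list spans 0.14.

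Because Igf2 and Igfbp2 moved together, the reference sequence before their start sites is shown. Each line gives 250 bases upstream of a RefSeq start in build GRCr8, written 5′ to 3′ on the strand of the gene, with matches to any of 5 motifs on either strand in capitals. The motifs were the GC box GGGCGG, the TATA box TATAAA, the E-box CACGTG, the FOXO site GTAAACA and the cAMP response element TGACGTCA. Igf2 has 2 entries, at chr1:207253981-207254230 and chr1:207250476-207250725 on the minus strand, and Igfbp2 has 1, at chr9:81864561-81864810 on the plus strand.
Igf2, first entry: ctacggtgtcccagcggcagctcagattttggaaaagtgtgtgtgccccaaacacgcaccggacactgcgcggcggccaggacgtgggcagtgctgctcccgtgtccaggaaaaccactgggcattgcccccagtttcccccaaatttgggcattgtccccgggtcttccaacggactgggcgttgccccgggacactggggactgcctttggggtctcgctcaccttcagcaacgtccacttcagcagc
Igf2, second entry: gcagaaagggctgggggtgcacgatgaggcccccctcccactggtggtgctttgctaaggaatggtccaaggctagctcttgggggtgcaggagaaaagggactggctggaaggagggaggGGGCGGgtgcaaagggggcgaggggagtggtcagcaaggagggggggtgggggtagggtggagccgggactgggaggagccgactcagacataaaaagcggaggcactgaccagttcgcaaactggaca
Igfbp2: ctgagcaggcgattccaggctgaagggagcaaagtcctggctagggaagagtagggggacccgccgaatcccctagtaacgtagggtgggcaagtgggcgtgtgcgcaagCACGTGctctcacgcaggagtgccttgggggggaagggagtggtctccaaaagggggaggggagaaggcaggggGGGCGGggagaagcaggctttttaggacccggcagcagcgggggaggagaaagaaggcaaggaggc

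The second Igf2 window held 1 GC box, starting 129 bases before the start, and the Igfbp2 window held 1, starting 66 bases before it. A GC box was present in 30.5% of the 33469 promoter windows of this length. The Igfbp2 window also held 1 E-box, 140 bases before the start, a motif in 5.59% of windows. The first Igf2 window matched none of the 5 motifs. Of the remaining members, 7 had an entry, and Irs2 had none. The Insr window held 1 FOXO site (3.21% of windows) and the Igfbp4 window 1 TATA box (12.9% of windows). Igf2r held 2 GC boxes and 2 E-boxes, Igf1r held 1 of each, Irs1 held 2 GC boxes, and Igf1 and Igfbp5 held no match. No matches overlapped each other. These are letter matches in a reference sequence, and no binding was measured.

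Levels in the 2 tissues were then set side by side. Each table has its own locus numbering, so the tables were treated as separate quantification runs. Tissue and table cannot be told apart, so no p-value is given for any difference between tissues. For this comparison each library was rescaled to the same sum over the 15805 symbols found in both tables. A gene was called higher in a tissue when all its libraries lay above all those of the other tissue and the means of log2(rescaled FPKM + 1) differed by at least 1, a 2-fold difference. Of 9 members compared, 1 was called higher in hippocampus, where 14.5% of all 10736 symbols compared were, and 2 were called higher in hypothalamus, where 13.4% of all symbols were. Called members were thus 3 of 9, against 27.9% of all symbols, a share near the background. Without the 2-fold condition, 5 members were higher in every hippocampus library (28.2% of all symbols) and 2 in every hypothalamus library (24.4%), together 7 of 9 against 52.6% of all symbols. The median absolute difference was 0.72 over the 9 members and 0.63 over all symbols.

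**Figure D3:**
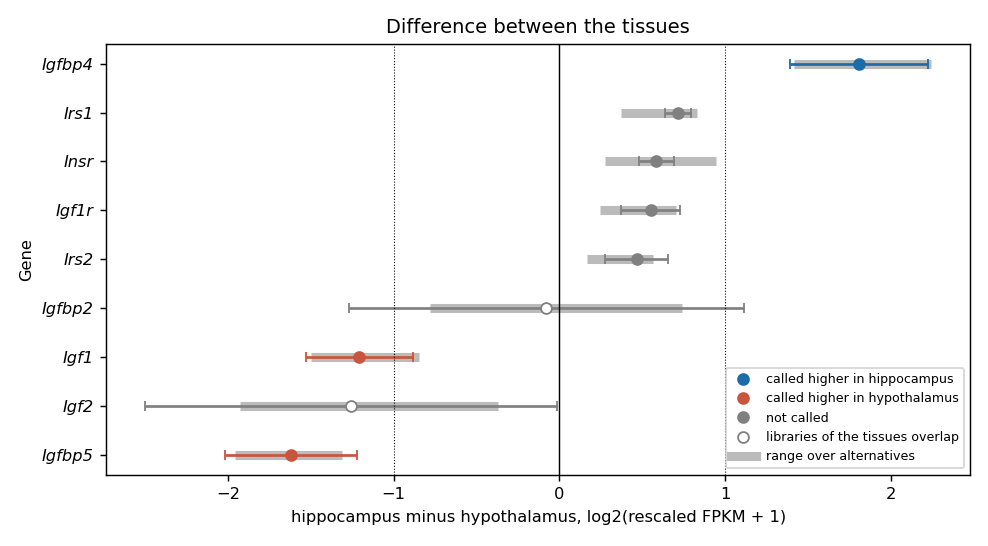
Difference between tissues (hippocampus minus hypothalamus) in mean log2(rescaled FPKM + 1) for 9 genes. Points are the values with a standard error from the libraries, open where the libraries of the tissues overlap and coloured where called, and grey bars give the range over 16 alternative settings. Igfbp4 lies at 1.81, Igf1 at −1.21 and Igfbp5 at −1.62, beyond the dotted lines at a 2-fold difference.

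Among the ligands, Igf1 was higher in hypothalamus. Igf1 encodes insulin-like growth factor 1, the main ligand of the IGF1 receptor. It read 1.52, 1.56, 2.36 and 1.83 FPKM in the hippocampus and 6.88, 6.90 and 3.75 in the hypothalamus. The lowest hypothalamus library lay above the highest hippocampus library, and the rescaled mean was 2.63 times as high in hypothalamus. The difference was −1.21 ± 0.32 (standard error, n = 4 and 3), and with a pseudocount of 5 it was −0.85, under the 2-fold condition. The hypothalamic libraries of Igf1 had the order of all 11 meningeal markers above 0, with replicates 1 and 2 nearly equal. Over 3 libraries many genes can share an order, and the part of meningeal RNA in the level of Igf1 was not tested. Igf2 had a rescaled difference of −1.26 ± 1.24, with libraries of the tissues overlapping. It was −0.37 without hippocampus replicate 2, −0.61 without hypothalamus replicate 2, −1.93 without hippocampus replicate 3 and −1.92 without hypothalamus replicate 3.

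The receptors for insulin and IGF1 lay close to each other in both tissues. Insr encodes the insulin receptor and read 6.17, 5.24, 6.43 and 5.39 FPKM in the hippocampus and 4.77, 4.77 and 4.29 in the hypothalamus. Igf1r encodes the IGF1 receptor and read 6.57, 6.04, 5.86 and 6.10 FPKM in the hippocampus and 3.96, 6.20 and 5.13 in the hypothalamus. The level of Igf1r was 0.912 to 1.15 times that of Insr in the hippocampus libraries and 0.831 to 1.30 times in the hypothalamus libraries. With the 2 hippocampal Insr loci summed it was 0.634 to 1.06 times. Igf1r varied little in hippocampus, with an SD of 0.06 on the log2 scale at percentile 2.46 of all loci.

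After rescaling, Insr differed by 0.58 ± 0.11 and Igf1r by 0.55 ± 0.18 towards hippocampus, both with the tissues apart and below 2-fold. The sign held under each of 16 alternatives, but in FPKM as deposited Igf1r differed by 0.24 and its libraries overlapped. The size of the Insr difference followed the treatment of the FPKM: it was 0.28 as deposited, 0.41 with upper-quartile scaling and 0.95 with the 2 Insr loci summed. Igf2r encodes the mannose-6-phosphate receptor, which takes up IGF2 for breakdown. Igf2r read 19.7, 14.7 and 14.1 FPKM in hypothalamus, above both other receptors in every library and 2.37 to 4.97 times Igf1r.

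Irs2 was more abundant than Irs1 in every library. Irs1 and Irs2 encode the docking proteins that link the receptors to PI3 kinase. Irs2 read 21.6, 23.8, 23.3 and 32.01 FPKM in the hippocampus and 17.6, 23.0 and 26.3 in the hypothalamus. Irs1 read 2.37, 2.59, 2.69 and 2.94 FPKM in the hippocampus and 1.61, 1.88 and 1.94 in the hypothalamus. Irs2 was therefore 8.65 to 10.90 times as abundant as Irs1 over the hippocampus libraries and 10.92 to 13.5 times over the hypothalamus libraries, with no overlap but almost touching. Irs1 was higher in every hippocampus library, by 0.72 ± 0.08 after rescaling and 0.37 as deposited. Irs2 was higher by 0.47 ± 0.19 with the tissues apart, but its libraries overlapped under 3 of the 16 alternatives, among them FPKM as deposited (0.17) and upper-quartile scaling (0.32).

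The binding proteins went in opposite directions. Igfbp4, which encodes a binding protein that withholds IGFs from their receptors, read 14.02, 18.6, 16.5 and 11.7 FPKM in the hippocampus and 5.53, 7.48 and 2.88 in the hypothalamus. Its tissues did not overlap, and the difference was 1.81 ± 0.42. Its range over the 16 alternatives was 1.42 to 2.24. Igfbp5, which encodes a binding protein with high affinity for extracellular matrix, read 12.8, 19.1, 18.2 and 27.7 FPKM in the hippocampus and 48.3, 107 and 70.8 in the hypothalamus. Every hypothalamus library exceeded every hippocampus library, by −1.62 ± 0.40 (hippocampus minus hypothalamus), with a range of −1.96 to −1.31 over the alternatives. The Igfbp5 to Igfbp4 ratio was 0.910 to 2.38 in the hippocampus libraries and 8.73 to 24.6 in the hypothalamus libraries. With loci summed it was 0.628 to 1.38 and 8.73 to 34.7. Igfbp2 had a difference of −0.08 ± 1.19, and its sign was not stable: it was 0.74 without hippocampus replicate 2, 0.52 without hypothalamus replicate 2 and 0.05 without hippocampus replicate 4, but −0.78 without hippocampus replicate 3 and −0.69 without hypothalamus replicate 3.

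In hippocampus, Igfbp5 and Igfbp4 did not share the library order of Igfbp2. Igfbp5 was lowest in replicate 1 and highest in replicate 4, and the genes closest to it included Me1, Ermn, Tceal8 and Ap1s2, at root mean square differences of 0.02 to 0.04. Ermn encodes a protein of the myelin-forming oligodendrocyte. Of the 7 oligodendrocyte markers, 2 had the library order of Igfbp5, and Mag, a myelin protein gene, was highest in replicate 1 and lowest in replicate 4. In hypothalamus the genes closest to Igfbp5 were Nbl1, Lgals3, Wasf2, Fkbp10 and Sncg, at 0.04 to 0.05, and Igfbp5 was highest in replicate 2, as all 11 meningeal markers above 0 were. It was lowest in replicate 1, however, where none of the 11 was, so none shared its library order. Igfbp4 there was closest to Kank2, Vim, Col18a1, Lgals1 and Tns1, at 0.02 to 0.06. Vim and Col18a1 encode an intermediate filament protein and a basement membrane collagen. The order of the libraries was the same for Igfbp4 as for Igf2, over a smaller range of 2.59-fold, and many genes can share an order over so few libraries. Whether tissue around the dissection contributes to the hypothalamic levels of Igfbp4 and Igfbp5 was not tested.

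For 4 members, a second locus carried the same symbol: Igf2, Insr and Igfbp4 in hippocampus and Igfbp5 in hypothalamus. The second locus of Insr read 0.0469, 2.32, 1.47 and 4.25 FPKM, that of Igfbp4 read 0, 11.8, 5.83 and 8.45 FPKM, and that of Igfbp5 read 0, 36.2 and 29.3 FPKM. With the Igf2 locus given above, all 4 second loci were at or near 0 in replicate 1 and above it in every other library. Taking all loci whose remaining libraries each reached 1 FPKM, those that replicate 1 read at under 0.1 times the lowest remaining library were 20.4% of 1948 loci where the symbol had several loci and 0.139% of 8654 where it had 1, in hippocampus. In hypothalamus the shares were 14.8% of 1655 and 0.190% of 9473.

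Rows were ordered so that neighbours usually shared a strand. Among 20 neighbouring rows of single-locus genes, the second Igf2 locus had 0 and its main locus 20 on the strand that RefSeq gives Igf2, and for Igfbp4 the counts were 0 and 19. For Igfbp5 they were 3 and 15, and the second locus stood directly between Igfbp2 and Cxcr2. For Insr they were 9 and 7, and no side could be told. The single Igf2r locus in hypothalamus had 6 of 20, so its side could not be told either. How reads were assigned by strand is not given in the sources used here, so reads of these genes and of overlapping genes on the other strand cannot be told apart. With both loci summed, Igf2 read 55.5, 6.99, 164 and 62.4 FPKM and Igfbp4 read 14.02, 30.3, 22.4 and 20.1 FPKM in hippocampus, and Igfbp5 read 48.3, 143 and 100.1 FPKM in hypothalamus. The calls of Igfbp4 and Igfbp5 did not change, and they held without replicate 1 of both tissues.

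**Figure D4:**
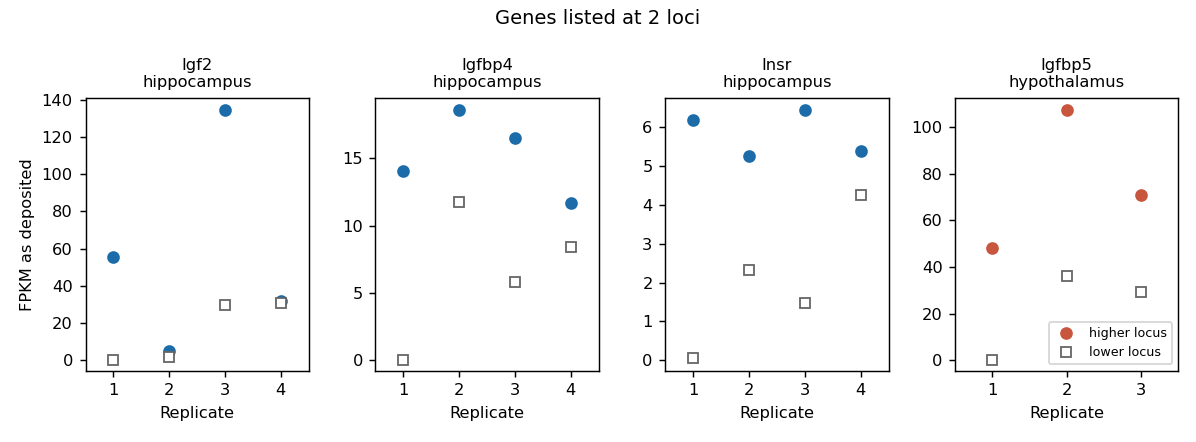
FPKM as deposited by replicate at the higher locus (filled) and the lower locus (open) of the 4 genes listed at 2 loci, 3 in hippocampus and 1 in hypothalamus. The lower locus is at or near 0 in replicate 1 of each panel, with 0.0469 FPKM for Insr and 0 for the other 3 genes.

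The rest of the pathway was examined through 11 lists with 89 further genes, of which 75 were found in both tables and 64 were compared. Of the 64, 7 (10.9%) were called higher in hippocampus, against 14.5% of all symbols, and 10 (15.6%) in hypothalamus, against 13.4%. These shares are near the background. The median difference was 0.12 over the 64 and 0.05 over all symbols. As deposited, 2 of the 64 were called higher in hippocampus and 12 in hypothalamus. Over all symbols these calls then took 8.64% and 16.9%, and the median difference was −0.21.

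**Figure D5:**
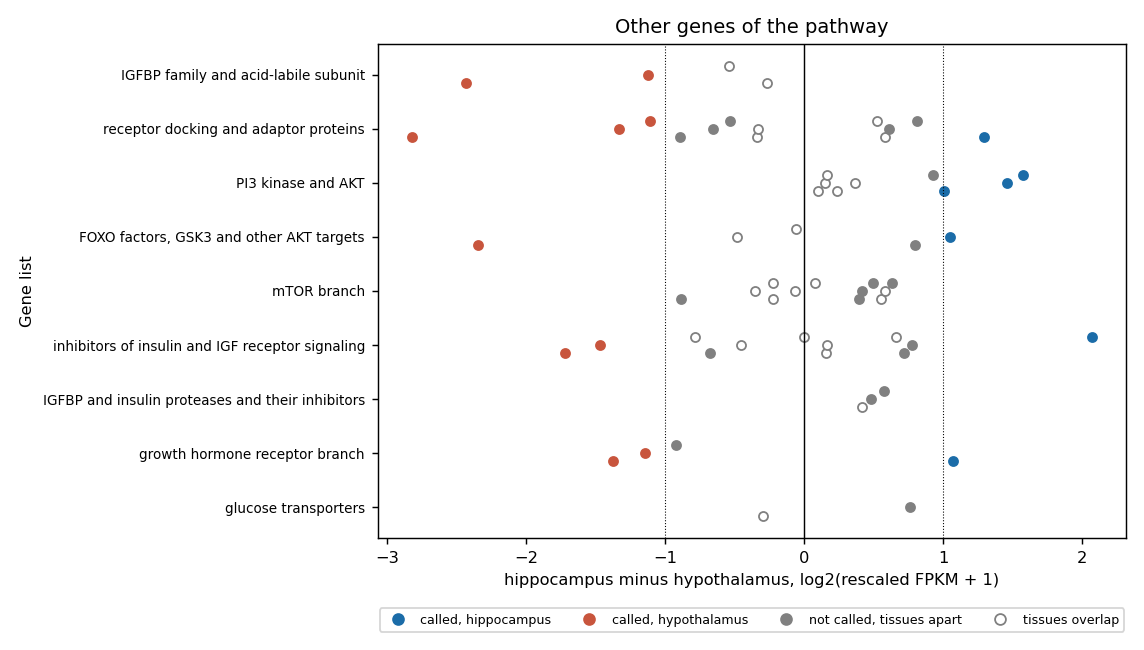
Difference between tissues (hippocampus minus hypothalamus) in mean log2(rescaled FPKM + 1) for the 64 further pathway genes compared, by list, 1 point per gene. Blue points were called higher in hippocampus and red ones in hypothalamus, and open points overlap between the tissues. All 4 binding-protein genes lie below 0. All 9 genes of the PI3 kinase and AKT list lie above 0 on this scale, but 5 of 9 as deposited and 8 of 9 with upper-quartile scaling.

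The insulin genes were listed at or near 0. A value of 0 in these tables can be a failed estimate: Col1a2 was at 0 in all 7 libraries while Col1a1, whose product assembles with that of Col1a2, read 3.95 to 71.9 FPKM, and Slc2a3, the main neuronal glucose transporter gene, was at 0 throughout hypothalamus. Ins1 was listed at 0 in all 7 libraries. Ins2 was listed at 0 throughout hippocampus and in hypothalamus replicate 2, and read 0.128 and 0.334 FPKM in hypothalamus replicates 1 and 3. Insrr, which encodes an insulin receptor-related receptor, was at most 0.564 FPKM in hippocampus and 1.12 FPKM in hypothalamus. Ghr, the growth hormone receptor gene, read 2.94 ± 0.506 FPKM in the hippocampus and 7.19 ± 0.726 in the hypothalamus, apart in every library with a difference of −0.92.

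Of 4 further binding-protein genes compared, 2 were called higher in hypothalamus (13.4% of all symbols) and none in hippocampus (14.5%), a count too small to set apart from that background. Igfbp6, whose protein prefers IGF2, read 3.95 ± 2.42 FPKM in the hippocampus and 26.5 ± 11.4 in the hypothalamus. Igfbp7, a vessel-associated relative with low affinity for IGFs, read 69.0 ± 21.5 and 184 ± 49.9 FPKM. Igfbp6 read 29.6, 35.9 and 13.8 FPKM and Igfbp7 195, 227 and 129 FPKM in the hypothalamus libraries, the library order of all 11 meningeal markers above 0. Many genes can share an order over so few libraries. In hippocampus, where the meningeal list was highest in replicate 3 and lowest in replicate 2, Igfbp6 read 6.31, 1.88, 5.77 and 1.86 FPKM and Igfbp7 81.3, 51.5, 93.0 and 50.1 FPKM, both lowest in replicate 4. The meningeal list mean was 2.69 to 4.54 in hypothalamus and 1.504 to 3.73 in hippocampus, and its part in these differences was not tested. Igfbp3 (−0.27) and Igfbpl1 (−0.54) overlapped between the tissues. Igfbp1 and Igfals, which encodes the acid-labile subunit of circulating IGF complexes, were barely read, with highest values of 0.128 and 0.108 FPKM. The 3 genes of proteases and their inhibitors compared were not called.

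Of 9 PI3 kinase and AKT genes, 3 were called higher in hippocampus (14.5% of all symbols) and none in hypothalamus (13.4%). Without the 2-fold condition, 4 were apart, all higher in hippocampus (28.2% of all symbols). The other 5 overlapped, where 52.6% of all symbols were apart in either direction. As deposited, 1 of the 9 was called higher in hippocampus (8.64% of all symbols), and 4 had a higher mean in hypothalamus. Pik3cd, a catalytic subunit of PI3 kinase, read 9.13 ± 1.04 FPKM in the hippocampus and 3.49 ± 0.597 in the hypothalamus. None of 12 genes of the mTOR branch was called, and as deposited 1 was, higher in hypothalamus. Of 5 FOXO, GSK3 and other AKT targets, 1 was called higher in hippocampus (0 as deposited) and 1 in hypothalamus. The latter was Bad, a cell death gene whose protein AKT phosphorylates, with 64.9 ± 6.35 FPKM against 10.7 ± 4.32.

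Calls among the docking proteins, inhibitors and growth hormone branch are to be read against 14.5% of all symbols called higher in hippocampus and 13.4% in hypothalamus, or 8.64% and 16.9% as deposited. Of 13 docking and adaptor genes, 1 was called higher in hippocampus (0 as deposited) and 3 in hypothalamus. Dok4, an IRS-like docking protein gene, read 11.7 ± 1.93 FPKM in hippocampus and 5.63 ± 0.977 in hypothalamus. Sh2b2, an adaptor of the insulin receptor, read 0.447 ± 0.136 FPKM in hippocampus and 6.62 ± 2.03 in hypothalamus, a difference of −2.83. It averaged 1 FPKM or more in hypothalamus only, and entered the comparison through that tissue. Of 12 inhibitors, 1 was called higher in hippocampus and 2 in hypothalamus. Ptpn1, the gene of a phosphatase that dephosphorylates the insulin receptor, read 15.04, 21.7, 20.5 and 22.7 FPKM in hippocampus and 4.21, 5.87 and 6.51 in hypothalamus. Grb10, an imprinted gene whose protein binds and inhibits the insulin and IGF1 receptors, read 12.3, 12.9, 13.8 and 16.2 FPKM in hippocampus and 49.3, 46.4 and 46.8 in hypothalamus. Ptpn1 and Grb10 each had more than 1 locus in hippocampus and a single one in hypothalamus. Of 4 genes of the growth hormone receptor branch, 1 was called higher in hippocampus and 2 in hypothalamus, against 0 and 3 as deposited and 0 and 1 with upper-quartile or median-of-ratios scaling.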

How the data were processed

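RNA was measured in 4 hippocampus and 3 hypothalamus libraries of DHA-fed rats, after poly-A selection and sequencing on an Illumina HiSeq per the labels' protocols. The authors deposited FPKM in a separate table for each tissue. Per the submitters' processing notes, the tools were TopHat, TopHat2, Bowtie, Bowtie2, Cufflinks and Cuffdiff and the build rn5; versions, annotation, normalization and strand setting are not given in the sources used here. The tables also carry a status word beside each FPKM, and loci whose status was not OK throughout were left out. With no read counts, depth and counting error are unknown.

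Python 3.11.15, numpy 2.4.6 and pandas 2.3.3 were used. The call rule was tested on simulated data with the same noise for every gene, unlike the wide spread of Igf2 and Igfbp2. For the spread, only the median SD of the simulated data was computed. Differences are of log2(value + 1), which understates changes of low genes, among symbols averaging 1 FPKM or more in either tissue; all members passed. Named genes are the members, the 4 pathway genes called with the largest difference in each direction averaging 5 FPKM or more where higher, pathway ligands and receptors, the marker genes that were most abundant or at 0, and the 5 genes closest in pattern to each member spanning at least 1 on the log2 scale in a tissue. Igfbp3, Igfbp7, Igfbpl1, Igfbp1, Igfals, Mag, Slc2a3 and Spink8 were named after their values were seen. Some genes the rule names are not reported here. Members and lists were chosen with earlier results of these data known. Promoter sequences are from RefSeq (GRCr8), another build than rn5, and matched 9 of 10 members. Alternatives were other pseudocounts, scalings, locus and filter choices and leaving out libraries.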

Additional observations from a re-analysis of the deposited data

How the results depend on the processing

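The differences of the 9 members were recomputed under 16 alternatives each. Of these 144 values, 134 moved by less than the spread between replicates, 10 moved by more, and none reversed a call. For Igf2 and Igfbp2 that spread was so wide that a move could hardly exceed it. Their SD of log2(rescaled FPKM + 1) was 1.97 and 1.93 in hippocampus. Neither was called, and Igfbp2 kept its sign in 12 of 16 alternatives. The count of members called higher in hypothalamus went from 2 to 1 with a pseudocount of 5, where Igf1 missed the 2-fold condition. The count of members apart and higher in hippocampus went from 5 to 3 in FPKM as deposited, where the share of all symbols went from 28.2% to 19.0%. Pathway genes called higher in hippocampus, 7 of 64, became 4 with a pseudocount of 5, with upper-quartile scaling or with median-of-ratios scaling, and 2 as deposited, where those apart went from 20 to 13. The share of all symbols called higher in hippocampus went from 14.5% to 11.01%, 10.8%, 12.1% and 8.64% under these settings. Hippocampus took 52.0% of all calls after rescaling and 33.8% as deposited. Leaving out 1 library at a time, or replicate 1 of both tissues, gave 5 to 8 pathway genes called higher in hippocampus and 9 to 12 in hypothalamus (13.8% to 18.1% and 13.1% to 15.9% of all symbols), and 2 to 5 hypothalamic members with a wide spread, the 5 without replicate 1 (Igf1, Igf2, Igfbp2, Igfbp4 and Igfbp5). At the highest locus of each symbol, libraries of the same number did not deviate together (r of −0.08, −0.20 and −0.33 over 10736 symbols for numbers 1 to 3). No library correlated best with its own number there. Second loci were outside this comparison, and their loss in replicate 1, given above, was shared by both tissues. With a replicate block, differencing libraries 1 to 3, members called stayed at 1 and 2, and pathway genes called were 5 and 9 (14.4% and 13.3% of all symbols). The member differences of the block equal those without hippocampus replicate 4 by arithmetic, so they add nothing separate to the 144 values. Depth in reads is unknown, so the counting error of low values such as those of Ins2 is unknown.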
